A study of Sus scrofa with 88 samples.

Results

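ACADS and ATP5G1 are genes of mitochondrial energy metabolism, and each had 1 named spot, that is, a spot with a gene symbol. They were chosen by their symbol in the platform's probe-to-gene table, and they make up 2 of the 178 spots with a symbol and 2 of all 20736 spots. Spots with no symbol in that table can hold other mitochondrial genes, and the study lists oligonucleotides for CKMT2 and TIMM44. ACADS (Entrez gene 396932, spot 9029) encodes short-chain acyl-CoA dehydrogenase, and ATP5G1 (Entrez gene 574054, spot 13347) encodes subunit c of mitochondrial ATP synthase. Loin muscle (longissimus dorsi) RNA of 176 F2 pigs of a Duroc x Pietrain cross was hybridized to 88 two-color oligonucleotide microarrays, with littermates of the same sex in the channels of each array. One pig of each pair was high and the other low for the trait on which its litter was selected. The trait was loin muscle area (LMA) in 24 litters, with 24 male and 24 female pairs, and backfat depth at the tenth rib (BF) in 20 litters, with 20 male and 20 female pairs. Each litter gave 1 male and 1 female array, and no pig was treated. High and low are ranks within a litter, so the size of the contrast in the trait itself was not analysed here.

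In mitochondria, short-chain acyl-CoA dehydrogenase takes the first step of the oxidation of short-chain fatty acids and passes electrons toward the respiratory chain. Subunit c forms the ring in the inner membrane that turns as protons flow back into the matrix, and this rotation drives ATP synthesis. ATP5G1 is 1 of several genes that encode the same mature subunit c, and whether its oligonucleotide also binds transcripts of the related genes was not tested. Pig loin is made mainly of fast fibers, which hold fewer mitochondria than slow fibers.

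The deposited value of a spot on an array is the log2 ratio of the littermates. It has no level of either pig, so the order of expression of both genes and the presence of muscle markers could not be read from it. The sources used here do not name the numerator. Averaged over arrays, ratios had an SD over spots of 0.024 as deposited and of 0.112 when the 47 arrays with Cy3 on the high pig had their sign reversed, and so they were read as high against low in 1 fixed order. All signs below are relative to this order. The SD of all ratios on an array ran from 0.133 to 0.660 with a median of 0.222. It was above 0.4 on 4 arrays, those of the female pairs of litters 12, 32 and 54 and the male pair of litter 56, all LMA litters, and these are called wide arrays. Where leaving out the wide arrays moved a value of ACADS or ATP5G1 much, both values are given.

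No difference between high and low littermates passed the test for either gene, in LMA or in BF litters. In LMA litters the ACADS log2 ratio had a lowest value of -0.47, a median of -0.01 and a highest of 0.66 in male pairs, and -1.08, -0.05 and 0.63 in female pairs. The mean was 0.08 ± 0.30 (SD, n = 24) in male and -0.05 ± 0.36 (SD, n = 24) in female pairs. The sign thus differed from array to array, with 20 of 48 LMA ratios above 0. In BF litters the ACADS ratio had a lowest value of -0.37, a median of -0.07 and a highest of 0.30 in male pairs, and -0.67, 0.03 and 0.46 in female pairs. The mean was -0.07 ± 0.19 (SD, n = 20) in male and -0.02 ± 0.27 (SD, n = 20) in female pairs, and 22 of 40 BF ratios were above 0. The ratios of all 4 groups overlapped and spanned 0.

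For ATP5G1, LMA litters gave a lowest ratio of -0.51, a median of -0.00 and a highest of 0.83 in male pairs, and -0.86, -0.03 and 1.27 in female pairs. The mean was 0.01 ± 0.37 (SD, n = 24) in male and 0.04 ± 0.52 (SD, n = 24) in female pairs, with 23 of 48 ratios above 0. The ATP5G1 ratios of female LMA pairs had an SD of 0.480 without the 3 wide arrays of this group. For ACADS the SD without wide arrays was 0.302 in male and 0.291 in female LMA pairs, and the mean was 0.07 and 0.01. BF litters gave ATP5G1 ratios with a lowest value of -0.70, a median of -0.09 and a highest of 0.44 in male pairs, and -1.15, -0.10 and 0.43 in female pairs. The mean was -0.13 ± 0.31 (SD, n = 20) in male and -0.12 ± 0.38 (SD, n = 20) in female pairs, with 17 of 40 ratios above 0. The means of both sexes were thus below 0 in BF litters by less than 1 SD of the arrays. Their standard errors, with no dye term, were 0.069 in male and 0.085 in female pairs.

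**Figure D1:**
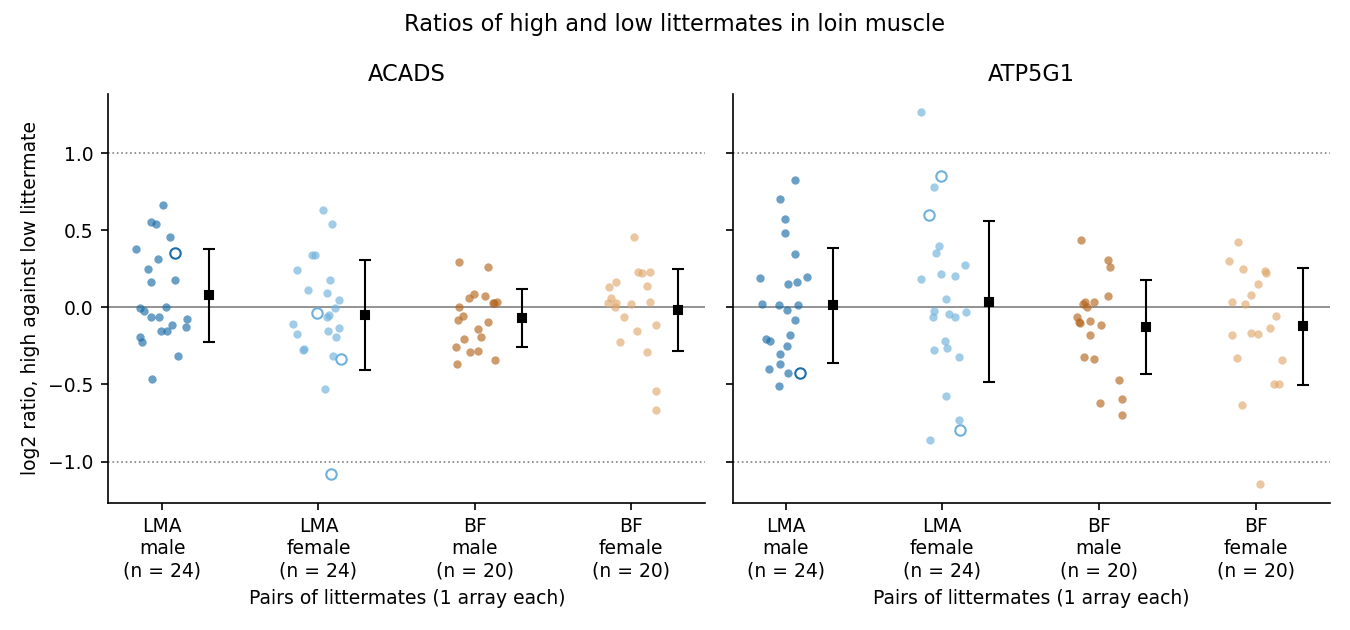
Log2 ratio of the high against the low littermate (vertical axis) for ACADS (left) and ATP5G1 (right) in male and female pairs of LMA and BF litters. Each point is 1 array, open points are the 4 wide arrays, squares with bars are means ± SD, and dotted lines mark a 2-fold difference. The ratios of every group lie on both sides of 0, and those of ATP5G1 reach farther, to 1.27 and -1.15.

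In the limma fit with terms for dye, LMA and BF, the LMA coefficient of ACADS was 0.01 (standard error 0.04, 95% confidence interval -0.07 to 0.10) and that of ATP5G1 was 0.03 (standard error 0.05, interval -0.08 to 0.13). Unadjusted p-values were 0.735 and 0.633. Without the wide arrays the LMA coefficient was 0.04 for ACADS and 0.03 for ATP5G1. With each array left out in turn it ranged from 0.00039 (without the male pair of litter 42) to 0.038 (without the female pair of litter 54) for ACADS. For ATP5G1 it ranged from 0.0021 (without the female pair of litter 77) to 0.047 (without the female pair of litter 32). After Benjamini-Hochberg adjustment over all spots 0 of the 2 genes passed for LMA, where 0% of all spots were called and 871 had an unadjusted p under 0.05. The BF coefficient was -0.04 for ACADS (standard error 0.05, interval -0.14 to 0.05, unadjusted p = 0.336) and -0.10 for ATP5G1 (standard error 0.06, interval -0.21 to 0.02, unadjusted p = 0.0924). Neither passed for BF, where 0% of all spots were called and 772 had an unadjusted p under 0.05. On a linear scale, the interval for ATP5G1 in BF litters ran from a ratio of 0.862 to 1.01, and the one for ACADS from 0.910 to 1.03. A larger mean difference between high and low littermates than these bounds lay outside the 95% intervals, which rest on the spread between arrays. In bulk muscle RNA, fewer cells of a type and less RNA per cell cannot be told apart.

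The LMA and BF effects were also compared with each other. For ATP5G1 the LMA coefficient minus the BF coefficient was 0.12 (interval -0.03 to 0.28, unadjusted p = 0.117), and for ACADS it was 0.06 (interval -0.06 to 0.18, unadjusted p = 0.347). The ACADS coefficient in LMA litters was 0.08 in male and -0.05 in female pairs, a difference of 0.13 (standard error 0.08, interval -0.04 to 0.29, unadjusted p = 0.126). This difference was 0.054 without the wide arrays (unadjusted p = 0.502) and 0.072 with array weights (unadjusted p = 0.355). Without the wide arrays the mean ACADS ratio was above 0 in both sexes, 0.07 in male and 0.01 in female LMA pairs. For ATP5G1 in LMA litters, male minus female was -0.03 (interval -0.24 to 0.19). In BF litters male minus female was -0.06 for ACADS (interval -0.24 to 0.12) and 0.01 for ATP5G1 (interval -0.22 to 0.24). Adjusted over all spots, the limma p-values of these differences lay between 0.724 and 0.9997. No difference between male and female pairs passed, and each interval included 0.

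**Figure D2:**
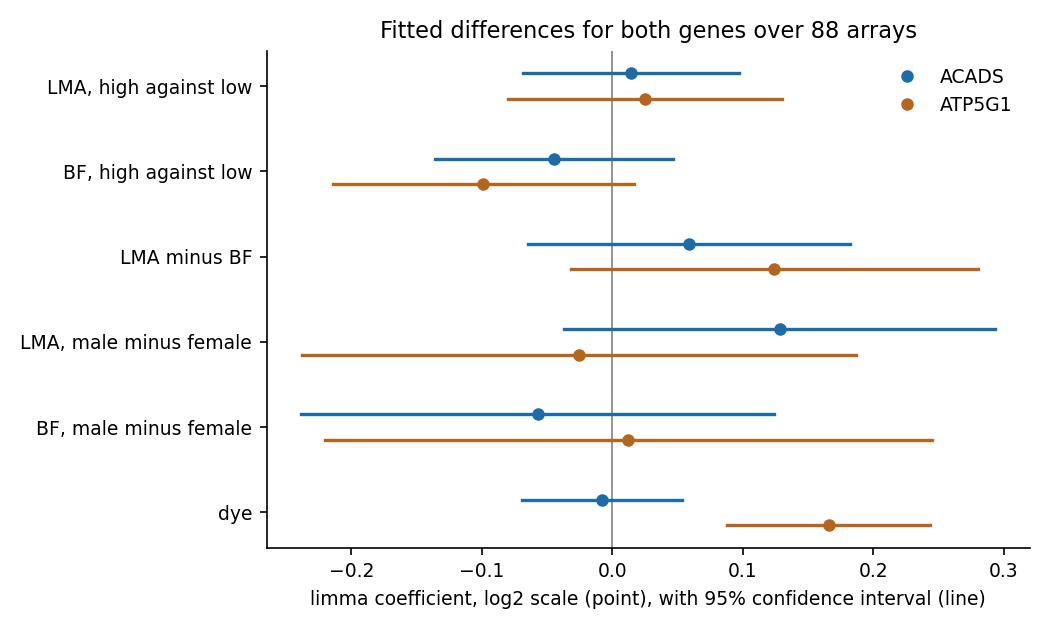
limma coefficients on the log2 scale (points) with 95% confidence intervals (lines) for ACADS (blue) and ATP5G1 (brown). The intervals of every littermate comparison include 0, and the dye coefficient of ATP5G1, 0.17, has an interval of 0.09 to 0.24.

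The ratio of ATP5G1 moved with the dye. Of the 2 genes, ATP5G1 passed for dye and ACADS did not, where 61.1% of all spots passed. The dye coefficient of ATP5G1 was 0.17 (standard error 0.04, limma adjusted p = 1.55e-04), above 93.3% of all spots in size, and its adjusted p ranged from 3.13e-06 to 3.98e-04 under the 9 alternatives run. For ACADS it was -0.01 (standard error 0.03, limma adjusted p = 0.843), above 8.86% of spots in size. Turned to the order of the dyes, the ratio of ATP5G1 was above 0 on 63 of 88 arrays and that of ACADS on 45 of 88. The difference between the dye coefficients of both genes was not tested.

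In 35 litters the high pigs of the male and the female array carried different dyes, so arrays and not litters are split here. On LMA arrays whose high pig carried Cy5, the ATP5G1 ratio had a lowest value of -0.80, a median of 0.19 and a highest of 1.27, and 17 of 24 ratios were above 0. Where the high pig carried Cy3, these values were -0.86, -0.21 and 0.85, and 6 of 24 were above 0. On BF arrays the median was 0.03 with the high pig on Cy5, 11 of 17 ratios being above 0, and -0.17 with the high pig on Cy3, 6 of 23 being above 0. The ranges overlapped, with the larger ratios on the Cy5 side in both traits. Of the 4 wide arrays 3 lay against this order, and without the 4 the dye coefficient was 0.19. The high pig carried Cy5 and Cy3 equally often in LMA litters, but Cy5 on 17 and Cy3 on 23 arrays in BF litters. The BF coefficient of ATP5G1 was -0.12 in a fit with no dye term (unadjusted p = 0.0531), against -0.10 with it. In a limma fit of BF arrays alone it was also -0.10 (unadjusted p = 0.0422, adjusted p = 0.99). Which dye gave more signal is relative, as the numerator is not named.

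**Figure D3:**
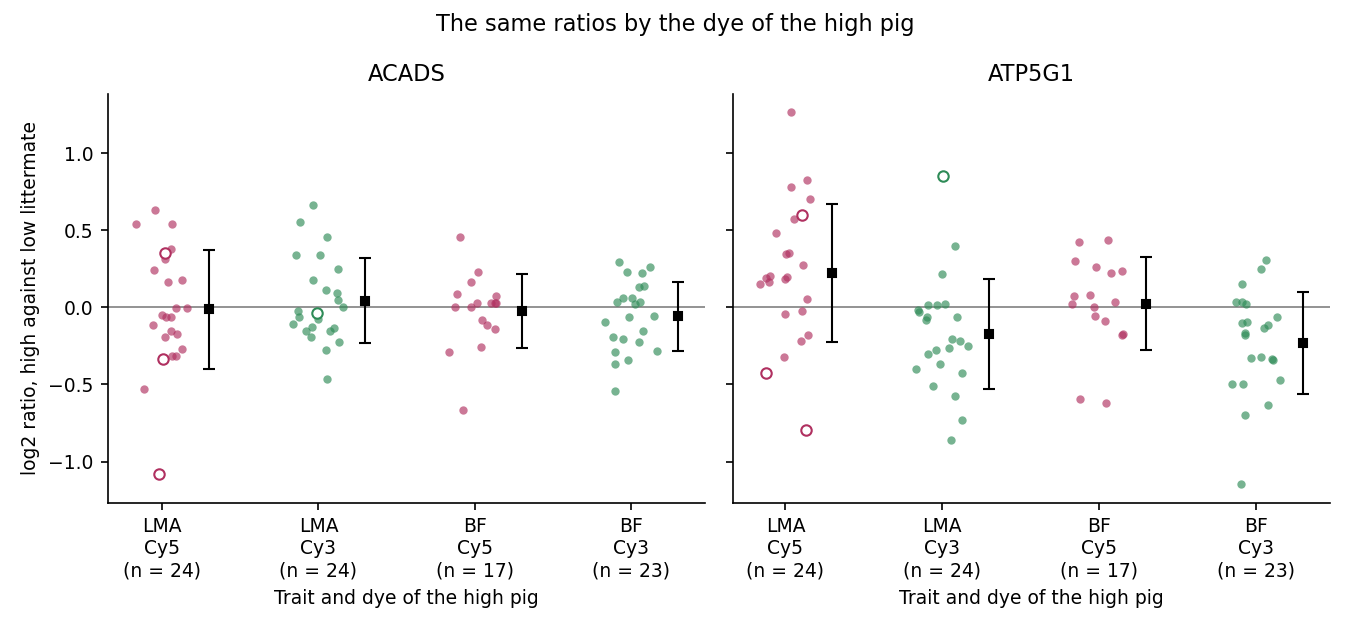
Log2 ratio of the high against the low littermate (vertical axis) by trait and by the dye that the high pig carried, for ACADS (left) and ATP5G1 (right). Points are arrays, open points wide arrays, and squares with bars means ± SD. For ATP5G1 the Cy5 means are 0.22 and 0.02 and the Cy3 means -0.17 and -0.23, whereas the ACADS means lie between -0.06 and 0.04.

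The ratios of both genes spread more over arrays than those of most spots. Each pair had 1 array, so differences between pigs and measurement noise cannot be told apart in this spread. The residual SD after dye and trait terms was 0.292 for ACADS and 0.369 for ATP5G1, against 0.137 for the median spot. These placed ACADS above 83.0% and ATP5G1 above 90.4% of all spots, at ranks 34 and 20 among the 178 named spots. On the median array the size of the ratio was above that of 73.0% of spots for ACADS and 83.2% for ATP5G1. Levels were not known, so whether either spot lay near background was not tested. Among markers on the lists used here, the spread was largest for LMCD1, a LIM domain protein of muscle, at 0.999. It was 0.503 for MYOD1, a transcription factor of muscle precursors, and 0.492 for MYH7, a myosin of slow fibers. The leukocyte marker TYROBP had 0.463, also above both genes. Below both genes were the adipocyte markers PLIN1 (0.134) and RETN (0.0828), the blood marker HBE1 (0.103) and the leukocyte marker CD4 (0.101).

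A difference beyond 2-fold was found on 1 array for ACADS and on 2 for ATP5G1. The ACADS ratio of -1.08 came from the female pair of litter 54, a wide array with an SD of 0.451. The ATP5G1 ratios of 1.27 and -1.15 came from the female pairs of LMA litter 77 and BF litter 97, which were not wide. No array had both genes beyond 2-fold. Both lay beyond 0.5 in size on 4 arrays, and on 3 of them with the same sign. The female pair of litter 77 had 0.54 for ACADS and 1.27 for ATP5G1, that of litter 10 had 0.63 and 0.78, and the male pair of litter 38 had 0.54 and 0.57. The female pair of litter 54 had -1.08 for ACADS and 0.60 for ATP5G1.

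Whether the male and the female pair of a litter deviated together was tested next. Over the 44 litters the residuals of the male and the female pair, read as high against low, had a Pearson's r of -0.0798 for ACADS (permutation p = 0.609) and of -0.181 for ATP5G1 (permutation p = 0.237). Spearman's rho was -0.0899 (permutation p = 0.560) and -0.158 (permutation p = 0.304). Without the 2 litters farthest out in the male pair, r was 0.0152 for ACADS and -0.261 for ATP5G1. No relation between the pairs of a litter was detected with 44 litters.

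The ratios of ACADS and ATP5G1 went together weakly over arrays. Both had the same sign on 56 of 88 arrays, 31 of 48 in LMA and 25 of 40 in BF litters, with both positive on 25 and both negative on 31. After dye and trait terms Pearson's r was 0.240 (permutation p = 0.0247) and Spearman's rho 0.310 (permutation p = 0.00347), both two-sided. Without the 2 arrays farthest out in ACADS r was 0.337 (permutation p = 0.00145), and without the 4 wide arrays 0.353 (permutation p = 8.70e-04). The largest rise came from the female pair of litter 54, without which r was 0.319. Without the female pair of litter 77 r was 0.191 and the permutation p 0.0779, above the threshold. Without the female pair of litter 10 r was 0.208 and without that of litter 32 it was 0.214, and these were not tested by permutation.

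Within LMA arrays r was 0.293 (permutation p = 0.0442) and within BF arrays 0.154 (permutation p = 0.345). It was 0.281 in male pairs (permutation p = 0.0651) and 0.229 in female pairs (permutation p = 0.134), and differences between these were not tested. Arrays of a litter are not independent, and over the means of the 44 litters, with the litter as replicate block, r was 0.318 (permutation p = 0.0352). The relation was common in size among spots. The r between both genes was larger in size than 71.9% of the r of ACADS with all spots and 76.5% of those of ATP5G1. The first principal component of all residuals carried 24.6% of their variance, and with it removed, a setting chosen after seeing the data, r was 0.142 (permutation p = 0.182). In the limma fit with the ratio of the other gene as a term, the slope of ATP5G1 on ACADS was 0.30 (adjusted p = 0.0875) and that of ACADS on ATP5G1 was 0.19 (adjusted p = 0.105). These slopes did not pass over all spots, but without the wide arrays they were 0.44 (adjusted p = 0.0121) and 0.28 (adjusted p = 0.0223).

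**Figure D4:**
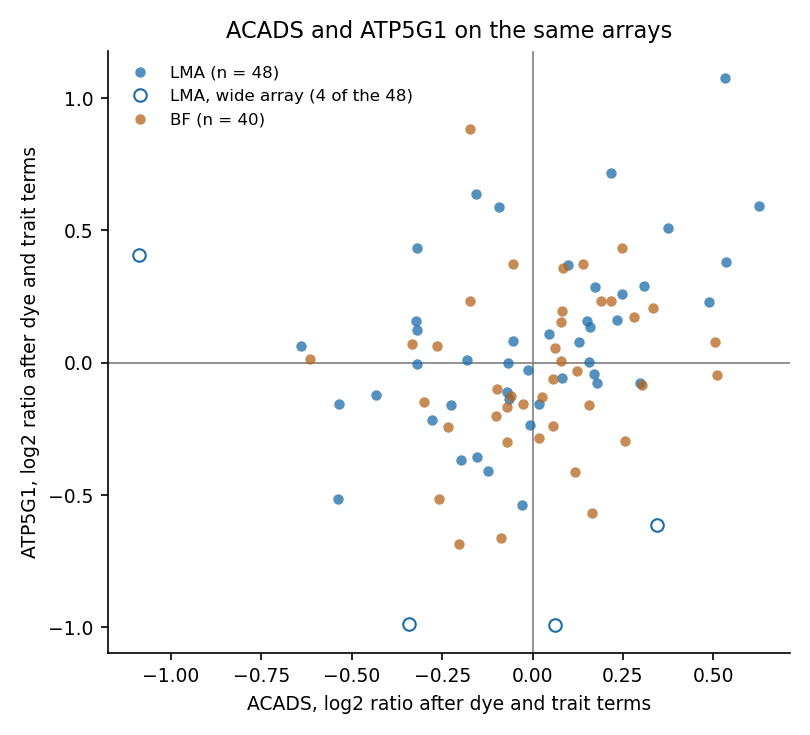
Log2 ratio of ACADS (horizontal) and ATP5G1 (vertical) on each of 88 arrays after dye and trait terms, with the sign in the order of the dyes. Blue points are LMA, brown points BF and open points wide arrays. The cloud rises weakly (r = 0.240), and the wide array of litter 54 at the far left lies away from it.

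Other spots followed ACADS more closely than ATP5G1 did. With the ACADS ratio as a term, 4657 of 20735 other spots passed (22.5%), of which 2809 rose and 1848 fell as ACADS rose. Among the 177 other named spots 50 passed, with 44 positive and 6 negative slopes. Named spots held few genes of mitochondrial metabolism. On the oxidative phosphorylation list only ATP5G1 had one, and on the fatty acid oxidation list only ACADS itself. Whether ACADS varied with other genes of these pathways could not be read from them. The 5 named spots most like ACADS by the size of r were of other kinds. They were CXCR6, a chemokine receptor of T cells, CYP8B1, a hydroxylase of bile acid synthesis in liver, the pituitary hormone PRL, the chemokine receptor XCR1 of dendritic cells and SLC17A1, a phosphate and urate transporter of kidney. All 5 had a positive r, in the range from 0.498 to 0.646.

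CXCR6 had the r with ACADS that was largest in size of all 20735 spots, 0.646, with a rho of 0.597 (adjusted permutation p = 5.04e-04 for r and 7.06e-04 for rho, over 353 relations). The permutation p of 1e-05 before adjustment is the smallest that 100000 permutations can give. The r of CXCR6 was 0.748 in LMA and 0.399 in BF arrays, 0.632 in male and 0.649 in female pairs, and 0.592 without the wide arrays. Without the 2 arrays farthest out in ACADS it was 0.565. For the next 4 genes rho was 0.498 for CYP8B1, 0.464 for PRL, 0.341 for XCR1 and 0.450 for SLC17A1, and each passed for both r and rho. Their r ranged from 0.395 to 0.519 without the 2 farthest arrays and from 0.427 to 0.526 without the wide arrays. Within BF arrays their r lay between 0.217 and 0.354, and within LMA arrays between 0.602 and 0.648, a difference that was not tested. With the first principal component removed r was 0.595 for CXCR6 and between 0.415 and 0.491 for the other 4.

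These 5 spots also had dye coefficients below 0, from -0.20 for CXCR6 to -0.62 for PRL, whereas that of ACADS was -0.01. Across the 177 named spots, which share arrays and are no replicates, the r with ACADS and the dye coefficient had a correlation of -0.598. Across all spots it was -0.302, and the median r with ACADS was 0.184 over spots that passed with a negative dye coefficient and -0.0323 over those with a positive one. The part of the dye in these correlations was not tested, although the fit held a mean dye term.

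The r of ACADS with spots beside it in the order of the array's numbering was larger in median size than with other spots, but mixed in sign. CXCR6 (spot 9027) lies 2 places before ACADS, and MYOD1 (spot 9028) between them had an r of -0.328. MYOC, the spot directly after ACADS, had an r of -0.233. Over the 6 places on either side, r ran from -0.328 to 0.646, and the median size was 0.337. It was 0.174 over the 431 other spots taken as the same printing block and 0.147 over other blocks. For ATP5G1 the median size was 0.215 over the 12 neighboring spots, 0.155 in its block and 0.140 elsewhere. The layout was inferred from the numbering, and the part of slide position in the correlations was not tested.

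With the ATP5G1 ratio as a term, 3135 of 20735 other spots passed (15.1%), of which 1451 rose and 1684 fell as ATP5G1 rose. Of the 177 other named spots 26 passed, with 18 positive and 8 negative slopes. The named spots most like ATP5G1 were PRM2, a protamine of sperm chromatin (r = 0.442), PPYR1, a receptor of pancreatic polypeptide (0.428), CD46, a regulator of complement (0.406), POMC, the precursor of pituitary peptide hormones (0.399), and LMCD1, a LIM domain protein of muscle (-0.398). Adjusted over the 353 relations, their permutation p-values for r ranged from 7.84e-04 to 0.00210. For rho, 4 of the 5 passed, and CD46 did not (rho = 0.283, adjusted permutation p = 0.0513). The size of r was between 0.285 and 0.354 without the 2 arrays farthest out in ATP5G1 and between 0.351 and 0.438 without the wide arrays. In size they were 0.525 to 0.553 in female and 0.173 to 0.255 in male pairs, a difference that was not tested. In LMA arrays they were 0.413 to 0.548 in size, and in BF arrays they ran down to 0.0515 for CD46 and 0.239 for PPYR1, which was not tested either. With the first principal component removed r was 0.308 for PRM2, 0.315 for PPYR1, 0.312 for CD46, 0.270 for POMC and -0.222 for LMCD1.

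**Figure D5:**
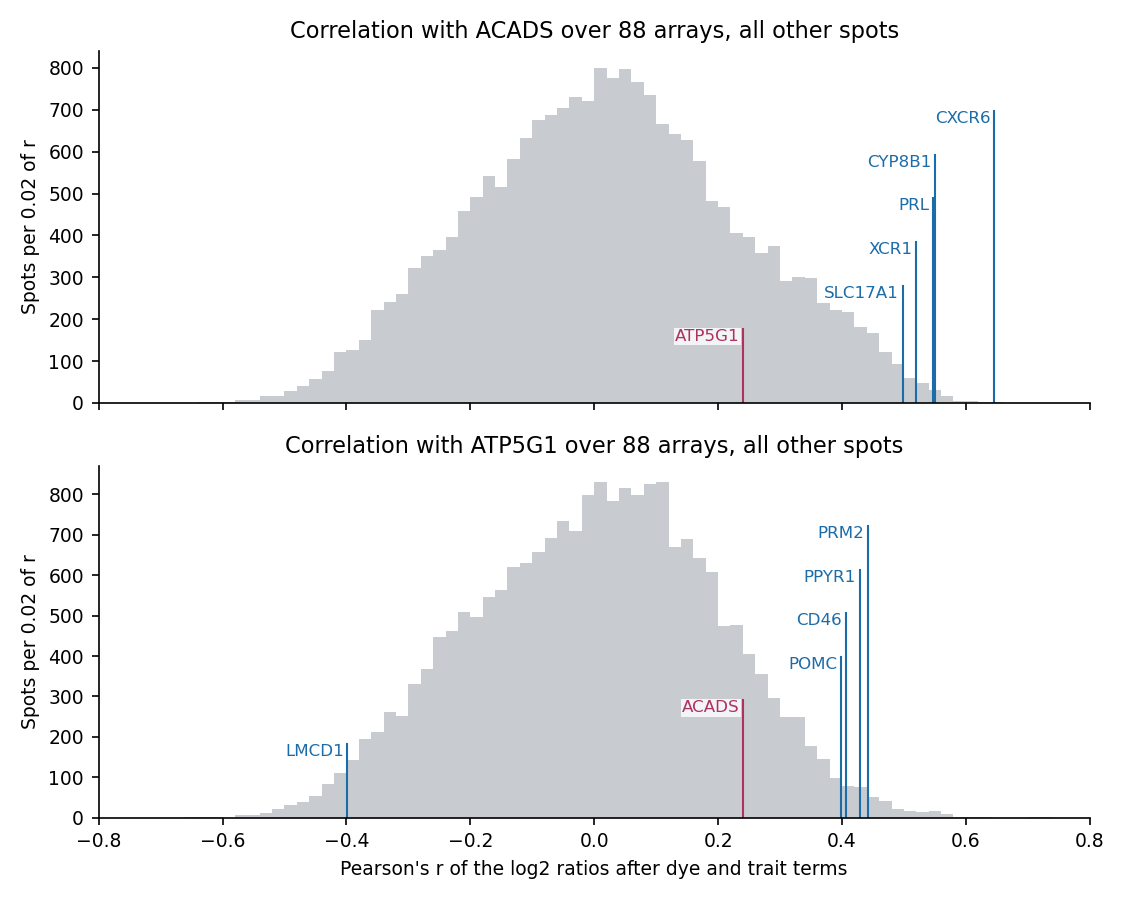
Number of spots (vertical) by Pearson's r (horizontal) with ACADS (top) and ATP5G1 (bottom) over 88 arrays after dye and trait terms. Blue lines mark the 5 named spots with the largest r in size and the red line marks the other gene of the pair. ATP5G1 and ACADS lie at 0.240 of each other, inside the bulk of the spots, and CXCR6 at 0.646 is at the edge for ACADS.

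Spots with no symbol went with ATP5G1 more closely than any named spot. The closest had an r of 0.738 and a rho of 0.750 (limma adjusted p = 5.62e-12), with 0.726 in LMA and 0.756 in BF arrays and 0.759 without the wide arrays. A change of 1 in the log2 ratio of ATP5G1 went with one of 0.81 (standard error 0.08) in this spot. The next had an r of 0.700 and a rho of 0.725, at 0.560 in male and 0.850 in female pairs. With the first principal component removed these r were 0.712 and 0.648. For ACADS the closest spots with no symbol had r of -0.636 and 0.635. These spots were chosen after their values were seen.

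Both pathways were thinly covered by named spots. Of the lists used here, fatty acid oxidation had 1 of 20 genes with a named spot (ACADS) and oxidative phosphorylation 1 of 42 (ATP5G1). The citrate cycle, glycolysis and mitochondrial control lists had 0 of 14, 0 of 14 and 0 of 15 genes with a named spot. These counts describe the symbols used here and not the array. The study lists oligonucleotides for CKMT2, TIMM44 and MRPL14, which are on the mitochondrial control list. From named spots, neither pathway could therefore be described beyond its 1 gene. The mitochondrial proteins MAOA, a monoamine oxidase, and TSPO, a transporter of the outer membrane, were taken from the named spots later. MAOA had an r of -0.240 with ACADS and of -0.248 with ATP5G1, and passed with neither (limma adjusted p = 0.0897 and 0.0945). TSPO had an r of -0.134 with ACADS and of 0.115 with ATP5G1, and passed with neither.

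Among the cell type markers that had a named spot, the muscle genes LMCD1 and MYOD1 had a negative r with both energy genes over all arrays. LMCD1 had an r of -0.469 with ACADS (limma adjusted p = 2.13e-04) and -0.398 with ATP5G1 (limma adjusted p = 0.00359), and MYOD1 one of -0.328 with ACADS (limma adjusted p = 0.0133) and -0.329 with ATP5G1 (limma adjusted p = 0.0192). Spearman's rho was -0.417 and -0.407 for LMCD1 and -0.251 and -0.309 for MYOD1, and that of MYOD1 with ACADS did not pass (adjusted permutation p = 0.0915). In LMA arrays the r of MYOD1 was -0.438 with ACADS and -0.437 with ATP5G1, and in BF arrays -0.0633 and -0.0869. That of LMCD1 with ACADS was -0.593 in LMA and -0.189 in BF arrays, and with ATP5G1 -0.413 and -0.371. With the first principal component removed these r were -0.176 and -0.132 for MYOD1 and -0.368 and -0.222 for LMCD1. Without the wide arrays the r of MYOD1 with ACADS was -0.230. MYH7, which marks slow and mitochondria-rich fibers, had an r of -0.0410 with ACADS and 0.0620 with ATP5G1, and neither passed. The slow fiber list used here held LMCD1 as well as MYH7, so its 2 genes with a named spot did not behave alike. RETN, on the adipocyte list, had an r of 0.291 with ACADS (limma adjusted p = 0.0358). With ATP5G1 it was 0.281 (limma adjusted p = 0.0572, adjusted permutation p = 0.0347). PLIN1, also on this list, had -0.188 and -0.177. Without the wide arrays the r with ATP5G1 was 0.162 for RETN and -0.0308 for PLIN1, and with ACADS 0.318 and -0.151. The r of RETN with ATP5G1 was 0.484 in LMA and -0.0411 in BF arrays, a difference that was not tested. The blood marker HBE1 and the leukocyte markers CD4 and TYROBP had an r between -0.130 and 0.123 with ACADS and between -0.283 and 0.109 with ATP5G1. None of the 3 passed in limma. By permutation CD4 passed with ATP5G1 for r (adjusted permutation p = 0.0414, limma adjusted p = 0.0533) but not for rho (adjusted permutation p = 0.113). Without the wide arrays the r of CD4 was -0.126 with ATP5G1 and -0.232 with ACADS. The fast fiber, endothelial and fibroblast lists had 0 genes with a named spot. Of the 8 markers with a named spot, 0 passed for LMA or BF, where PLIN1 had the smallest unadjusted p, 0.0128 for LMA. The part of fiber or cell composition in the ratios of ACADS and ATP5G1 was not tested.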

How the data were processed

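The authors deposited log2 ratios of median spot intensities, not background-corrected, after lowess within print tips and scaling between arrays. These were used unchanged. Group, sex, litter and dye came from the labels. The sign was reversed where Cy3 labeled the high pig, and dye, LMA and BF terms were fitted over all 88 arrays by lmFit and eBayes of limma 3.58.1 (R 4.3.3), with contrasts between sexes. The threshold was 0.05 after Benjamini-Hochberg adjustment over all spots. Correlations used residuals of this fit and 100000 two-sided permutations of the arrays, adjusted over 353 relations with named spots. The number of arrays limits the precision, and control spots were not told apart.

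The genes named besides ACADS and ATP5G1 are the 5 named spots with the largest r in size with each, and those on the pathway and marker lists. Members and lists were chosen with earlier results of these data known. MAOA, TSPO, the spots with no symbol and the neighboring spots were chosen after values were seen. The fit was also run on simulated ratios drawn independently for each spot, apart from planted effects. They lack the variation that real spots share, so this run cannot judge the numbers of spots that went with ACADS or ATP5G1. Male and female arrays of a litter are paired by the labels, and their consensus correlation over spots was 0.126. The alternatives were litter as block, array weights, other scalings, wide arrays, 1 trait, 1 sex or low-spread spots left out, no dye term, other thresholds, and each array left out. Probe sequences and genome positions were not analysed here.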

Additional observations from a re-analysis of the deposited data

How the results depend on the processing

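Under litter as a replicate block, 0 spots passed for LMA or BF, the coefficients were 0.01 and -0.05 for ACADS and 0.03 and -0.09 for ATP5G1, and the block changed no call. If the ratios ran in the order of the dyes, 10503 spots would pass for LMA and 9411 for BF, with -0.028 and 0.021 for ACADS and 0.20 and 0.14 for ATP5G1 (limma adjusted p = 0.00123 and 0.0468). The LMA coefficient of ACADS was -0.050 in female pairs, whose mean ratio without wide arrays was 0.012. The dye coefficient of ACADS was 0.0067 with scaled ratios, 0.016 after quantile normalization, 0.0052 without wide arrays and -0.015 to 0.0051 with each array left out. For ATP5G1 in LMA litters, male minus female was 0.047 with array weights and 0.018 without wide arrays. For dye, 7538 spots passed of the 13824 tested without the third of lowest spread.

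With ACADS, 2543 spots passed at an adjusted p under 0.01. With ATP5G1, 1530 passed without wide arrays, 1721 with scaled ratios, 1979 with array weights, 1994 with ACADS as a further term, 1292 at 0.01, and 781 with the first principal component as a term, a setting chosen later. The r between the genes was 0.154 in BF arrays, 0.281 in male and 0.229 in female pairs, 0.142 with that component removed, and 0.191 to 0.319 with each array left out. The r between pairs of a litter was 0.157 for ACADS and 0.0167 for ATP5G1 in the order of the dyes, and for ACADS 0.0488 in LMA litters and 0.0152 without 2 litters. The causes of these changes were not tested. As levels were not analysed here, spots near background could not be told apart.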
